A study of Mus musculus with 14 samples.

Results

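The CC chemokines and the CC chemokine receptor described here are 9 genes, namely the ligands *Ccl2*, *Ccl3*, *Ccl4*, *Ccl5*, *Ccl6*, *Ccl7*, *Ccl9* and *Ccl12* and the receptor *Ccr2*. They were taken by symbol from a table of 46904 genes that gives RPKM (reads per kilobase of gene, scaled to the size of the library) in 14 mRNA libraries, and all 9 were found and passed the filter on low values. The libraries came from male mice on a C57BL/6J background, aged 12 weeks, whose middle cerebral artery had been occluded (MCAO) for 20 min with a filament and then reperfused. At 48 h the brain was split into the contralateral (CL) hemisphere and the ischemic hemisphere, here called MCAO. Wild-type (*Cort*+/+) mice gave 3 CL and 3 MCAO libraries, and mice with a constitutive deletion of the neuropeptide gene cortistatin (*Cort*-/-) gave 3 CL and 5 MCAO libraries. CL tissue also came from mice with MCAO, so no library represents an unoperated brain, and the labels do not say which CL and MCAO libraries share a mouse. The deletion is present in every cell and throughout life, and each library is RNA of a whole hemisphere. Where variability was large, the study kept replicates that grouped clearly, and which groups this concerned is not given in the sources used here. The *Cort*+/+ MCAO replicates used here are numbered 2, 3 and 4, so the spread of that group may be that of a selected set.

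CC chemokines are small secreted proteins with a pair of adjacent cysteines, and they act on G-protein coupled receptors of leukocytes. *Ccl2*, *Ccl7* and *Ccl12* are the monocyte chemoattractant ligands of *Ccr2*, the receptor that brings inflammatory monocytes from blood into injured tissue. *Ccl3*, *Ccl4* and *Ccl5* are inflammatory ligands of macrophages and T cells, and *Ccl3* and *Ccl5* act on *Ccr1*. *Ccl6* and *Ccl9* are ligands of *Ccr1* that myeloid cells make. In the ischemic brain, microglia, astrocytes, endothelial cells and infiltrating leukocytes are known sources of these ligands.

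The 8 ligands all lie on chromosome 11 of GRCm39 in a proximal and a distal cluster. *Ccl2* (ENSMUSG00000035385, chr11:81926397-81928279, plus strand), *Ccl7* (ENSMUSG00000035373, chr11:81936532-81938351, plus strand) and *Ccl12* (ENSMUSG00000035352, chr11:81992645-81994466, plus strand) form the first. *Ccl5* (ENSMUSG00000035042, chr11:83416602-83425942, minus strand), *Ccl9* (ENSMUSG00000019122, chr11:83463745-83473161, minus strand), *Ccl6* (ENSMUSG00000018927, chr11:83478708-83483913, minus strand), *Ccl3* (ENSMUSG00000000982, chr11:83538670-83540191, minus strand) and *Ccl4* (ENSMUSG00000018930, chr11:83553383-83555509, plus strand) form the second. *Ccr2* (ENSMUSG00000049103) lies on chr9:123901982-123913594, plus strand. Although these genes are relatives, stretches of 50 bases from the transcripts of *Ccl2*, *Ccl4*, *Ccl5*, *Ccl6*, *Ccl7* and *Ccl12* occurred in no other annotated gene on either strand. *Ccl3* shared 24.5% of its stretches with *Gm53692*, a gene on the opposite strand that overlaps its exons, *Ccl9* shared 2.51% with several genes, and *Ccr2* shared 1.94%. The libraries mark the strand, but whether the counting used it is not given in the sources used here, so *Ccl3* reads may include reads of *Gm53692*.

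RefSeq promoter sequences (build GRCm38.p6) were at hand for 5 of the 9 genes, namely *Ccl3*, *Ccl6*, *Ccl9*, *Ccl12* and *Ccr2*. The 250 bases before the start are shown for *Ccl12*, *Ccl3* and *Ccl9*, which stand for the 3 ligand groups and moved together in the data below. Capitals mark the letters of 4 motifs searched on both strands, GGGA and CC with 4 bases of any kind between them (NF-kappaB), GAAA and GAAA with 2 between them (interferon regulatory factors), TGANTCA (AP-1) and TTNNGNAA (C/EBP). The windows are chr11:82101595-82101844 on the plus strand for *Ccl12*, and chr11:83649379-83649628 and chr11:83578637-83578886 on the minus strand for *Ccl3* and *Ccl9*.
Ccl12: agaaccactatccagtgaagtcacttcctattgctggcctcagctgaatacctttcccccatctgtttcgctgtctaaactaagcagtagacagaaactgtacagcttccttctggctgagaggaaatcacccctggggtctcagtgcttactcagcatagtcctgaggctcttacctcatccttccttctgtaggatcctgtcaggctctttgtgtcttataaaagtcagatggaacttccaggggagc
Ccl3: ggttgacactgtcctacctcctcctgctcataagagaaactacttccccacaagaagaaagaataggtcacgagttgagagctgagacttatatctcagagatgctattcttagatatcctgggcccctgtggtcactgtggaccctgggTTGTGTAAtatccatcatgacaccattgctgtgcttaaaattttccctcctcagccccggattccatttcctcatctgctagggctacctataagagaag
Ccl9: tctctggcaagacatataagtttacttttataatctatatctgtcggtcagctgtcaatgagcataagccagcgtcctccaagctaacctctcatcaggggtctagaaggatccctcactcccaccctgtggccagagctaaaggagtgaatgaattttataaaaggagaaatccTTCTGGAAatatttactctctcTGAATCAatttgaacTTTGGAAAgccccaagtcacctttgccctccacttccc
*Ccl3* held 1 match, TTGTGTAA, beginning 100 bases before the start. *Ccl9* held a C/EBP match 75 bases before the start (TTCTGGAA), an AP-1 match at 53 bases (TGAATCA) and another C/EBP match at 38 bases (TTTGGAAA). *Ccr2* held 1 C/EBP match on the opposite strand, and the windows of *Ccl12* and *Ccl6* held none of the 4 motifs. Among all 32851 promoter windows of this length, the C/EBP letters occurred in 36.8%, the NF-kappaB letters in 17.6%, the AP-1 letters in 6.75% and the interferon regulatory factor letters in 2.98%, so a match is a description and not a binding site.

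Library depth ranged from 25991112 to 43034545 reads on genes, and the lowest was a *Cort*-/- MCAO library (replicate 3). *Cort*, the deleted gene, had 64 to 139 reads in *Cort*+/+ libraries and 0 to 4 reads in *Cort*-/- libraries. Of the markers of brain tissue, the 5 neuron genes summed to between 1492 and 2072 RPKM in every group. Libraries of 1 group gave a chi-square of at least 5.82 per degree of freedom in each of 19 pairs, beyond counting error, so none was taken as a copy of another.

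All 9 genes had higher mean levels in MCAO than in CL hemispheres of both genotypes. Over both genotypes 6 of the 9 rose (*Ccl2*, *Ccl3*, *Ccl4*, *Ccl6*, *Ccl9* and *Ccl12*, limma on log2(RPKM + 0.1), Benjamini-Hochberg adjusted p under 0.05 over 46102 genes), where 2.52% of all genes tested rose. *Ccl12* had a log2 fold change (log2FC) of 3.44 ± 0.53 (SE), a fold of 10.9, the largest at this pseudocount, whereas with a pseudocount of 0.01 that of *Ccl4* was larger (3.86 against 3.65). In *Cort*-/- mice alone 5 of 9 rose (*Ccl3*, *Ccl4*, *Ccl6*, *Ccl9* and *Ccl12*), where 1.34% of all genes did. Without *Cort*-/- CL replicate 1 or 3 none of the 9 passed there, and without *Cort*-/- CL replicate 2 or MCAO replicate 1, 4 or 5 only *Ccl3* and *Ccl12* did. In *Cort*+/+ mice alone 0 of 9 passed, where 0.00868% of all genes did, and 7 of 9 had an unadjusted p under 0.05, where 4.88% of all genes had one and lay higher in MCAO. The corresponding counts at an unadjusted p were 9 of 9 in *Cort*-/- mice (background 6.66%) and 9 of 9 over both genotypes (background 8.02%). limma voom on the recovered reads called 0 in *Cort*+/+ mice, 4 in *Cort*-/- mice (not *Ccl12*) and 6 over both genotypes. Among the 13695 genes whose mean level lay within the range of these 9, from 0.162 to 6.31 RPKM, 0.0292% rose in *Cort*+/+ mice, 3.07% in *Cort*-/- mice and 5.39% over both genotypes. The median log2FC of the 9 genes was 1.75 in *Cort*+/+ and 1.79 in *Cort*-/- mice, and 1.75 over both, while the median of all genes tested over both was 0.000119. Fold changes on the log2(RPKM + 0.1) scale understate the change of genes near or below 0.1 RPKM. In CL tissue this concerns several libraries of *Ccl2* and *Ccl4*, a single library of *Ccl5* and most libraries of *Ccl7* and *Ccr2*.

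**Figure D1:**
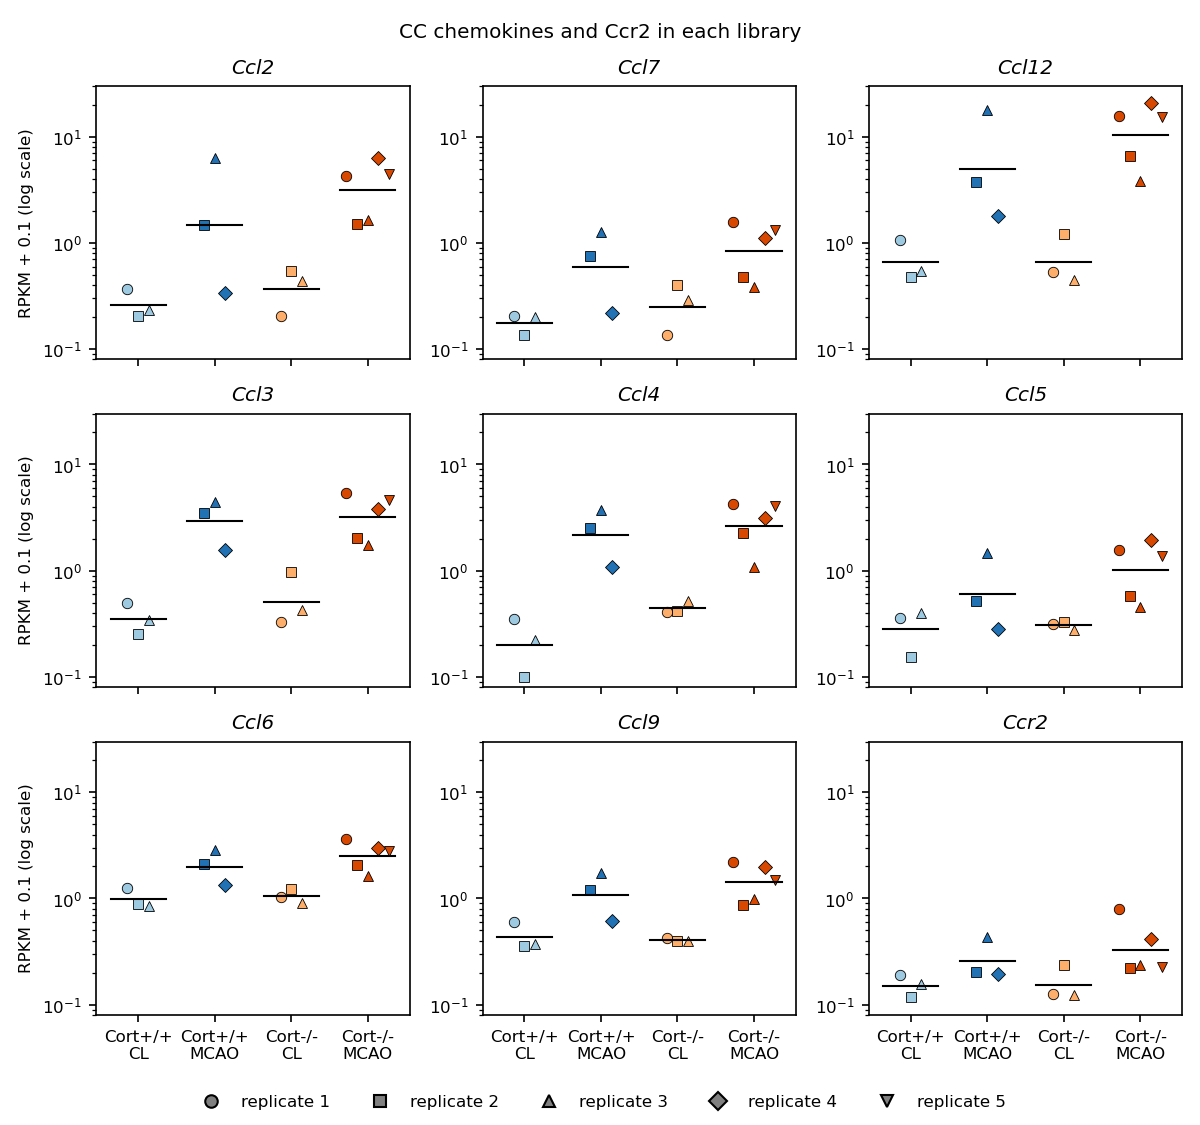
RPKM + 0.1 on a log axis for each of the 9 genes (panels) in each library, by group on the horizontal axis. Point shapes give the replicate number and lines the mean on the log scale, n = 3, 3, 3 and 5 libraries. For *Ccl3*, *Ccl4*, *Ccl6*, *Ccl9* and *Ccl12* every MCAO point lies above every CL point.

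*Ccl12* was the most abundant of the ligands of *Ccr2*. Its CL levels were 0.975, 0.377 and 0.449 RPKM in *Cort*+/+ replicates 1, 2 and 3, and 0.432, 1.12 and 0.345 RPKM in *Cort*-/- replicates 1, 2 and 3. The *Cort*+/+ MCAO libraries held 3.62, 17.7 and 1.68 RPKM (replicates 2, 3 and 4), and the *Cort*-/- MCAO libraries 15.5, 6.47, 3.74, 20.9 and 15.1 RPKM (replicates 1 to 5). Every MCAO library lay above every CL library, and within MCAO the lowest and highest libraries were 10.5-fold apart in *Cort*+/+ mice and 5.59-fold apart in *Cort*-/- mice. *Ccl12* rose in *Cort*-/- mice (log2FC 3.98 ± 0.70, adjusted p = 0.0173) and over both genotypes (adjusted p = 0.00427). The *Cort*+/+ change alone, a log2FC of 2.91 ± 0.79, had an adjusted p of 0.284. Leaving out *Cort*+/+ MCAO replicate 3 gave a log2FC of 1.98 and leaving out replicate 4 gave 3.64, neither past the threshold.

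*Ccl2*, the prototype monocyte chemoattractant, was at 0.271, 0.107 and 0.132 RPKM in *Cort*+/+ CL libraries and at 0.107, 0.444 and 0.342 RPKM in *Cort*-/- CL libraries, in replicate order. Its levels were 1.37, 6.18 and 0.238 RPKM in *Cort*+/+ MCAO replicates 2, 3 and 4, and 4.18, 1.42, 1.54, 6.19 and 4.40 RPKM in *Cort*-/- MCAO replicates 1 to 5. *Cort*+/+ MCAO replicate 4, with 6 reads, lay inside the CL range, whereas the *Cort*-/- groups did not overlap. *Ccl2* rose over both genotypes (log2FC 2.79 ± 0.57, adjusted p = 0.0172). Of the 14 fits that each left out a library, this call was lost in the one without *Cort*-/- CL replicate 1 (adjusted p = 0.0541). Within genotypes the log2FC was 2.48 ± 0.85 in *Cort*+/+ (adjusted p = 0.416) and 3.09 ± 0.76 in *Cort*-/- mice (adjusted p = 0.0639). The *Cort*+/+ value of *Ccl2* ran from 1.43 without MCAO replicate 3 to 3.54 without MCAO replicate 4 (adjusted p = 0.865 and 0.0729). In *Cort*-/- mice *Ccl2* passed without *Cort*-/- MCAO replicate 3 or *Cort*+/+ MCAO replicate 3 or 4 (adjusted p = 0.0496, 0.0209 and 0.0189), and with a filter at a mean of 0.5 RPKM, with library weights or with only the *Cort*-/- libraries fitted (adjusted p = 0.0288, 0.0475 and 0.0330).

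*Ccl7*, another ligand of *Ccr2*, was the least abundant ligand in CL tissue. It had 3, 1 and 3 reads in the *Cort*+/+ CL libraries and 1, 8 and 5 reads in the *Cort*-/- CL libraries. MCAO levels were 0.660, 1.16 and 0.121 RPKM (19, 38 and 3 reads) in *Cort*+/+ replicates 2, 3 and 4. The *Cort*-/- MCAO libraries held 1.46, 0.374, 0.284, 1.02 and 1.24 RPKM in replicates 1 to 5, and the lowest of these lay below the highest CL library of that genotype (0.30 RPKM). *Ccl7* did not pass over both genotypes (log2FC 1.75 ± 0.45, adjusted p = 0.0536). At such counts 3 of the 14 fits without 1 library gave *Ccl7* an adjusted p below 0.05, from 0.0119 to 0.0490, when *Cort*-/- MCAO replicate 2 or 3 or *Cort*+/+ MCAO replicate 4 was left out. *Ccl7* also passed after rescaling to TPM, with a pseudocount of 0.01, with a filter at a mean of 0.5 RPKM and with library weights. These are 4 of 10 settings other than leaving out a library, over which the adjusted p ran from 0.0244 to 0.268.

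*Ccl3* and *Ccl4*, ligands that activated microglia and macrophages release, had the lowest adjusted p-values of the 9 genes over both genotypes. *Ccl3* levels in CL were 0.396, 0.151 and 0.245 RPKM in *Cort*+/+ and 0.227, 0.864 and 0.323 RPKM in *Cort*-/- libraries. In MCAO they were 3.41, 4.38 and 1.48 RPKM in *Cort*+/+ replicates 2, 3 and 4, and 5.25, 1.92, 1.63, 3.72 and 4.50 RPKM in *Cort*-/- replicates 1 to 5. No CL library reached any MCAO library. *Ccl3* rose in *Cort*-/- mice (log2FC 2.64 ± 0.47, adjusted p = 0.0174) and over both genotypes (2.85 ± 0.35, adjusted p = 0.00145). The *Cort*+/+ value, 3.06 ± 0.52, had an adjusted p of 0.0954, and without *Cort*+/+ MCAO replicate 4 it was 0.0181.

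*Ccl4* had 0.251 RPKM in *Cort*+/+ CL replicate 1, no read in replicate 2, where 3 reads would be 0.131 RPKM, and 0.122 RPKM in replicate 3. The *Cort*-/- CL libraries held 0.308, 0.319 and 0.421 RPKM. MCAO levels were 2.44, 3.60 and 0.979 RPKM in *Cort*+/+ replicates 2, 3 and 4. In *Cort*-/- replicates 1 to 5 they were 4.11, 2.16, 0.975, 3.05 and 3.95 RPKM, and all 8 MCAO libraries exceeded all 6 CL libraries. *Ccl4* rose in *Cort*-/- mice (log2FC 2.57 ± 0.51, adjusted p = 0.0266) and over both genotypes (3.01 ± 0.38, adjusted p = 0.00160). In *Cort*+/+ mice the log2FC of 3.45 ± 0.57 had an adjusted p of 0.0855, and it passed when *Cort*+/+ MCAO replicate 4 was left out (0.0148) or *Cort*-/- MCAO replicate 3 was (0.0285). *Ccl3* exceeded *Ccl4* in 7 of the 8 MCAO libraries, with ratios of RPKM from 1.14 to 1.67, and the ratio was 0.889 in *Cort*-/- MCAO replicate 2.

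*Ccl5*, a ligand of T cells, monocytes and eosinophils that interferons and NF-kappaB induce, was low throughout. CL libraries held 0.259, 0.0544 and 0.302 RPKM in *Cort*+/+ and 0.218, 0.226 and 0.174 RPKM in *Cort*-/- mice, which is 1 to 6 reads each. MCAO libraries held 0.418, 1.38 and 0.182 RPKM in *Cort*+/+ replicates 2, 3 and 4 and 1.47, 0.476, 0.356, 1.85 and 1.28 RPKM in *Cort*-/- replicates 1 to 5. The *Cort*-/- groups did not overlap, while *Cort*+/+ MCAO replicate 4, with 3 reads, lay inside the CL range. The log2FC was 1.09 ± 0.64 in *Cort*+/+ and 1.74 ± 0.57 in *Cort*-/- mice, and neither passed (adjusted p = 0.775 and 0.175). Over both genotypes the log2FC was 1.42 ± 0.43 (adjusted p = 0.104). *Ccl5* passed there without *Cort*+/+ MCAO replicate 4 (adjusted p = 0.0463) and with a filter at a mean of 0.5 RPKM (adjusted p = 0.0485). Its *Cort*+/+ log2FC was 0.44 without MCAO replicate 3 and 1.64 without MCAO replicate 4.

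*Ccl6* and *Ccl9*, the ligands of *Ccr1*, had 38 to 61 and 27 to 54 reads in each CL library, more than any other of the ligands there. *Ccl6* had the highest mean of the 9 genes in CL, at 1.17, 0.783 and 0.744 RPKM in *Cort*+/+ and 0.927, 1.13 and 0.815 RPKM in *Cort*-/- libraries. Its MCAO levels were 2.01, 2.74 and 1.23 RPKM in *Cort*+/+ replicates 2, 3 and 4 and 3.56, 1.97, 1.52, 2.89 and 2.70 RPKM in *Cort*-/- replicates 1 to 5. The 2 hemispheres did not overlap, although the lowest MCAO and highest CL libraries, both *Cort*+/+, were close. *Ccl6* rose in *Cort*-/- mice (log2FC 1.27 ± 0.28, adjusted p = 0.0392) and over both genotypes (1.15 ± 0.21, adjusted p = 0.00908), and the *Cort*+/+ log2FC was 1.03 ± 0.31 (adjusted p = 0.341). The *Cort*-/- call of *Ccl6* was lost when any of the 3 *Cort*-/- CL libraries, *Cort*-/- MCAO replicate 1, 4 or 5, *Cort*+/+ CL replicate 2 or 3 or *Cort*+/+ MCAO replicate 2 was left out (adjusted p of 0.0540 to 0.154).

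*Ccl9* was at 0.495, 0.260 and 0.276 RPKM in *Cort*+/+ CL and at 0.328, 0.30 and 0.298 RPKM in *Cort*-/- CL libraries. In MCAO it was at 1.10, 1.63 and 0.516 RPKM in *Cort*+/+ replicates 2, 3 and 4 and at 2.13, 0.773, 0.881, 1.89 and 1.41 RPKM in *Cort*-/- replicates 1 to 5. Again no CL library reached an MCAO library, with *Cort*+/+ CL replicate 1 and MCAO replicate 4 close to each other. *Ccl9* rose in *Cort*-/- mice (log2FC 1.79 ± 0.36, adjusted p = 0.0281) and over both genotypes (1.56 ± 0.27, adjusted p = 0.00728). The *Cort*+/+ log2FC was 1.33 ± 0.40 (adjusted p = 0.342).

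*Ccr2*, the receptor of inflammatory monocytes, had the lowest mean of the 9 genes in every group. CL libraries held 0.0897, 0.0171 and 0.0555 RPKM in *Cort*+/+ and 0.0257, 0.138 and 0.0228 RPKM in *Cort*-/- mice. MCAO libraries held 0.103, 0.333 and 0.0956 RPKM in *Cort*+/+ replicates 2, 3 and 4 and 0.697, 0.123, 0.134, 0.312 and 0.127 RPKM in *Cort*-/- replicates 1 to 5. The *Cort*+/+ groups did not overlap, whereas *Cort*-/- CL replicate 2 lay above 3 of the 5 MCAO libraries of its genotype. *Ccr2* did not pass in *Cort*+/+ mice (log2FC 0.77 ± 0.49, adjusted p = 0.828), in *Cort*-/- mice (1.10 ± 0.44, adjusted p = 0.295) or over both (0.93 ± 0.33, adjusted p = 0.178). All its CL means lie below the pseudocount of 0.1. In limma voom on the recovered reads, which adds no RPKM, the log2FC over both genotypes was 2.01 (adjusted p = 0.0669).

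The share of genes whose groups did not overlap gives the background for the counts above. MCAO lay wholly above CL for 7 of 9 genes in *Cort*+/+ mice (all but *Ccl2* and *Ccl5*), for 7 of 9 in *Cort*-/- mice (all but *Ccl7* and *Ccr2*), and for 5 of 9 over all 14 libraries. The same held for 5.73%, 4.85% and 1.72% of all genes tested.

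**Figure D2:**
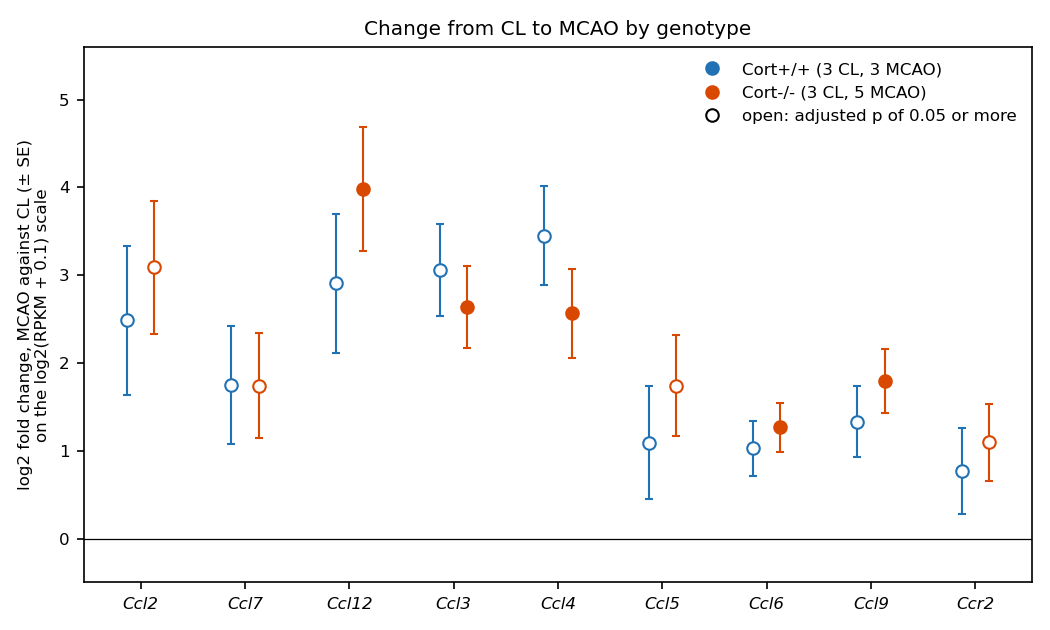
Log2FC from CL to MCAO (vertical axis, log2(RPKM + 0.1) scale) with its SE for each gene, in *Cort*+/+ (3 CL and 3 MCAO libraries) and *Cort*-/- mice (3 CL and 5 MCAO libraries). Filled points passed an adjusted p of 0.05, which 5 genes did in *Cort*-/- and 0 in *Cort*+/+ mice, and every value lies above 0.

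The comparison between genotypes asked whether the lack of cortistatin altered these genes. In CL hemispheres 0 of 9 genes passed, where 0.0152% of all genes did, and 0 had an unadjusted p under 0.05, where 3.91% of all genes had. Log2FC of *Cort*-/- against *Cort*+/+ in CL ran from -0.08 for *Ccl9* to 1.17 ± 0.57 for *Ccl4*, whose unadjusted p of 0.0593 was the lowest. In MCAO hemispheres 0 of 9 passed (background 0.0174%), and 0 had an unadjusted p under 0.05 (background 3.82%). All 9 log2FC in MCAO lay above 0, from 0.13 ± 0.47 for *Ccl3* to 1.10 ± 0.76 for *Ccl2*, and each was smaller than 2 SE. Without *Cort*+/+ MCAO replicate 4, those of *Ccl3*, *Ccl4*, *Ccl7* and *Ccl9* were below 0.

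The difference between genotypes in the change from CL to MCAO was tested as an interaction, for which 0 of 9 genes passed (background 0.00217%) and 0 had an unadjusted p under 0.05 (background 3.31%). Its values ran from -0.88 ± 0.76 for *Ccl4* to 1.08 ± 1.06 for *Ccl12*, with 6 genes above 0 and *Ccl3*, *Ccl4* and *Ccl7* below. Unadjusted p-values were 0.268 to 0.991. The 5 calls in *Cort*-/- and none in *Cort*+/+ mice are therefore not a tested difference between genotypes, and the *Cort*-/- comparison had 2 more MCAO libraries. limma voom also called 0 of 9 in the interaction and in both comparisons of genotypes.

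The library highest or lowest within a group was often the same for several of the 9 genes. In *Cort*+/+ CL, replicate 1 was highest and replicate 2 lowest for 8 genes. In *Cort*-/- CL, replicate 2 was highest for 7 genes and replicates 1 and 3 for 1 each, while replicate 3 was lowest for 5 and replicate 1 for 4. *Cort*+/+ MCAO replicate 3 had the highest and replicate 4 the lowest level of all 9 genes. In *Cort*-/- MCAO, replicate 1 was highest for 6 and replicate 4 for 3 genes, while replicate 3 was lowest for 6 and replicate 2 for 3. The summed RPKM of the 8 ligands was 1.77 to 3.92 in *Cort*+/+ CL and 2.58 to 4.70 in *Cort*-/- CL libraries. It was 15.0, 38.8 and 6.43 in *Cort*+/+ MCAO replicates 2, 3 and 4, and 37.6, 15.6, 10.9, 41.5 and 34.5 in *Cort*-/- MCAO replicates 1 to 5. The MCAO libraries of each genotype thus spread 6.04-fold and 3.80-fold, and no sum in CL reached the lowest in MCAO. Between pairs of the 9 genes, the correlation of log2 levels over the 14 libraries, after subtraction of group means, had a median of 0.838 over 36 pairs and ran from 0.556 for *Ccl4* with *Ccr2* to 0.937 for *Ccl3* with *Ccl7*. The 8 pairs with *Ccr2* had a median of 0.712. *Cort*-/- MCAO replicate 5 was among the 3 libraries of its group with a ligand sum above 30 RPKM, yet its *Ccr2* level, 0.127 RPKM, lay near the lowest of that group. All genes of a library share its depth and tissue, so these correlations are descriptions.

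By mean share, *Ccl6* was the leading ligand in CL and *Ccl12* in MCAO of both genotypes. *Ccl6* made up 35.2 ± 7.95% (SD, n = 3) of the summed ligand RPKM in *Cort*+/+ CL and 29.3 ± 6.05% (SD, n = 3) in *Cort*-/- CL libraries. In MCAO its share was 13.2 ± 6.07% (SD, n = 3) and 10.2 ± 3.03% (SD, n = 5), and the highest MCAO share, 19.2%, lay below the lowest CL share, 24.0%. *Ccl12* took 21.7 ± 3.0% and 17.5 ± 6.02% in CL, against 32.0 ± 11.9% in *Cort*+/+ and 42.2 ± 5.78% in *Cort*-/- MCAO libraries. For *Ccl12* the *Cort*-/- groups did not overlap, whereas the lowest *Cort*+/+ MCAO share, 24.1%, lay inside the CL range. These shares were not tested, since they follow from the levels above. *Ccl12* exceeded *Ccl2* in every MCAO library, by 2.43 to 7.07 times in RPKM.

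**Figure D3:**
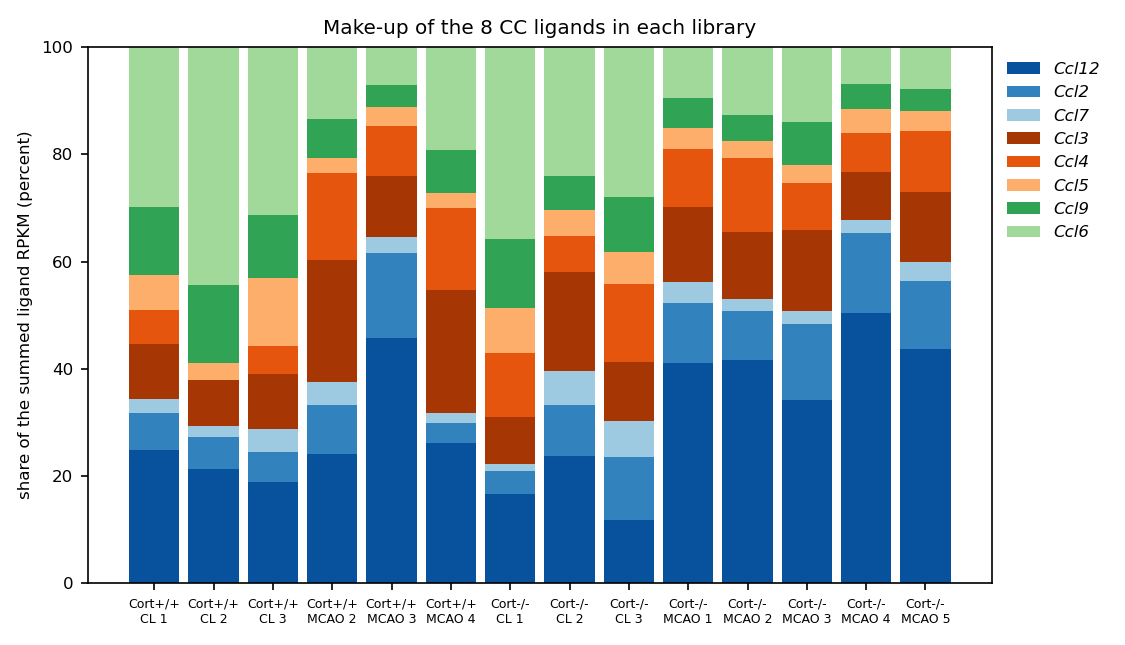
Share of each ligand in the summed RPKM of the 8 ligands (vertical axis, percent), 1 stacked bar per library with group and replicate number below. The upper, light green part is *Ccl6*, at 24.0% or more in CL and 19.2% or less in MCAO libraries, and the dark blue base is *Ccl12*.

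Hemisphere RNA mixes cells, so more cells of a type and more RNA per cell cannot be told apart. Beside the marker counts that follow, 2.52% of all genes tested rose over both genotypes, and 8.02% were higher in MCAO with an unadjusted p under 0.05. Of 8 monocyte and macrophage markers, among them *Ly6c2*, *Plac8* and *Chil3*, all 8 had reads in every group and 3 (*Plac8*, *S100a4* and *Fn1*) rose over both genotypes. Their summed level was 9.82 to 16.3 RPKM in *Cort*+/+ CL, 11.9 to 15.1 in *Cort*-/- CL, 16.4 to 34.4 in *Cort*+/+ MCAO and 21.3 to 42.1 in *Cort*-/- MCAO libraries. Of 8 microglia markers 6 rose over both genotypes, with sums of 99.6 to 106 and 97.4 to 114.5 RPKM in CL and of 128.6 to 198 and 146.8 to 214 RPKM in MCAO libraries of *Cort*+/+ and *Cort*-/- mice. *Cort*+/+ MCAO replicate 4, lowest of its group in all 9 chemokine genes, had the lowest sum of both lists among the MCAO libraries of both genotypes. Of 8 neutrophil markers 0 passed, also at an unadjusted p under 0.05, with a summed level of 2.45 to 5.24 RPKM in *Cort*+/+ and 3.84 to 15.9 RPKM in *Cort*-/- libraries over both hemispheres. Of 8 T and NK cell markers 0 rose and 1, *Cd4*, fell over both genotypes (log2FC -1.38 ± 0.24, adjusted p = 0.00763). At an unadjusted p under 0.05, 4 of these 8 were higher and 1 was lower in MCAO. The summed level of this list was 4.50 to 5.74 RPKM in CL and 2.16 to 4.59 RPKM in MCAO libraries, and most of the difference was *Cd4*, which other cells than T cells also make. Its mean was 4.09 and 1.81 RPKM in CL and MCAO of *Cort*+/+ mice and 3.59 and 1.26 RPKM in *Cort*-/- mice, while *Trac*, the T cell receptor alpha constant gene, had means of 1.03 and 1.58 RPKM and of 1.17 and 1.38 RPKM. *Cd3e*, *Cd3d*, *Gzmb* and *Cd8a* had reads in each group, and *Cd3g* in *Cort*+/+ CL and *Nkg7* in *Cort*-/- CL libraries had no read. Of 7 markers of border macrophages 0 passed, and 3 had an unadjusted p under 0.05. Of 5 astrocyte markers *Gfap*, *Aqp4* and *Aldh1l1* rose over both genotypes, and the sum of all 5 was 232 to 349 RPKM in CL and 327 to 573 RPKM in MCAO libraries. Most of that difference was *Gfap*, with means of 70.8 and 210.3 RPKM in CL and MCAO of *Cort*+/+ mice and 72.8 and 279.9 RPKM in *Cort*-/- mice. *Slc1a3* had means of 119.9 and 117.4 RPKM and of 121 and 108.6 RPKM, and *Gja1* of 53.4 to 56.5 RPKM in the 4 groups. Of 5 endothelial markers *Cldn5* and *Cdh5* rose over both genotypes (adjusted p = 0.0488 and 0.0365), with sums of 35.7 to 49.4 RPKM in CL and 46.6 to 64.4 RPKM in MCAO libraries. Of 5 red blood cell genes 0 passed over both genotypes, also at an unadjusted p under 0.05, and their sum ran from 87.4 to 329.6 RPKM. It was highest in *Cort*+/+ CL replicate 1, the library of its group with the highest level of 8 of the 9 chemokine genes. The part of these cell types in the levels of the chemokine genes was not tested.

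**Figure D4:**
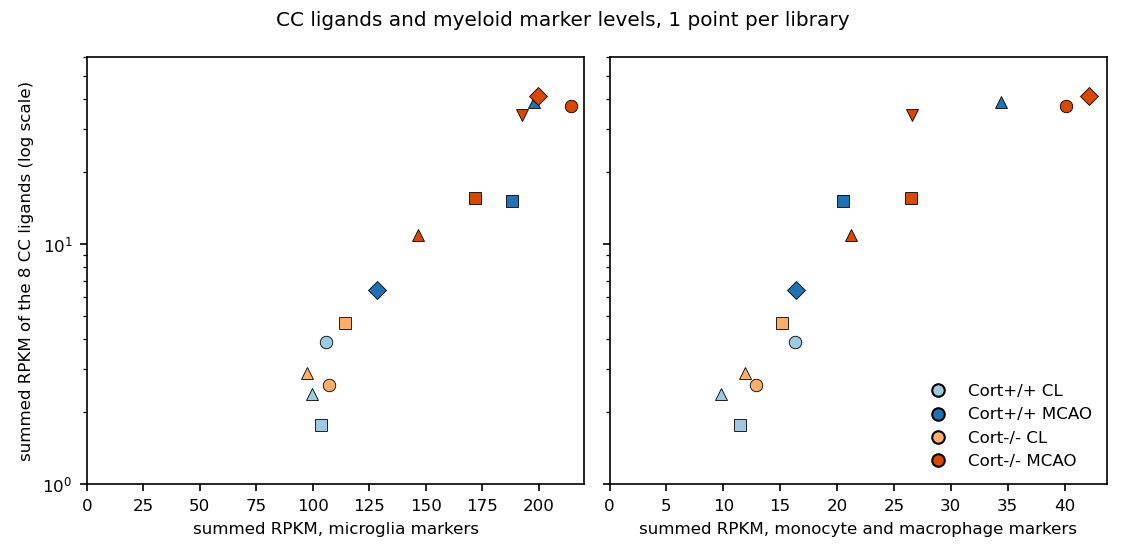
Summed RPKM of the 8 CC ligands (vertical, log axis) against summed RPKM of 8 microglia markers (left) and 8 monocyte and macrophage markers (right), 1 point per library, colours for groups and shapes for replicate numbers as in the plot of levels by library. All CL points, with microglia sums up to 114.5 and ligand sums up to 4.70, lie below and to the left of all MCAO points. Of the 8 monocyte and macrophage markers, *Fn1* had the highest mean in each group.

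Of the other CC family, 12 ligands and 13 receptors are reported here, and 9 and 6 of them had a mean of at least 0.1 RPKM in some group. *Ccr1*, the receptor of *Ccl6* and *Ccl9*, had a log2FC of 1.03 ± 0.27 over both genotypes and did not pass (adjusted p = 0.0565). *Ccl11*, the eosinophil attractant eotaxin, passed in *Cort*-/- mice (adjusted p = 0.0281) and over both genotypes (adjusted p = 0.0117), but the *Cort*-/- CL libraries held 0 to 1 reads of it against 5 to 35 in MCAO. Its summed reads there, 2 in CL and 113 in MCAO, gave a ratio of 29.2 after scaling to library size (95% interval 7.91 to 244.3, exact binomial, counting error only). In *Cort*+/+ mice *Ccl11* was at 0.0674 ± 0.0370 RPKM in CL and 0.368 ± 0.311 RPKM in MCAO (SD, n = 3 each).

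The remaining ligands and receptors did not pass in MCAO against CL over both genotypes. *Ccl8*, a monocyte chemoattractant, had a log2FC of 0.59 ± 0.41 and at most 3 reads in each CL library. The scavenging receptors *Ackr2* and *Ackr4* had log2FC of -0.39 ± 0.16 and 0.40 ± 0.13 (adjusted p = 0.262 and 0.146). *Ccrl2*, *Ccl24*, *Ccl19*, *Ccl17*, *Ccl28*, *Ccl25*, *Ccr10* and *Ccl22* lay between 0.34 for *Ccrl2* and -0.15 for *Ccl22*. *Ccl27a* (21.6 to 22.3 RPKM as group means) and *Ackr1* (32.0 to 34.8 RPKM) were the most abundant of the family, with log2FC of 0.02 ± 0.07 and -0.08 ± 0.04. Their levels are uncertain, since 54.3% of the 50-base stretches of *Ccl27a* occur in near-identical genes and *Ackr1* overlaps *Cadm3* on the same strand, and the same holds for *Ccl19*, with 76.9% shared, and *Ackr4*, with 17.5% shared with *Acad11*. *Ccl1*, *Ccl20*, *Ccl21a*, *Ccr1l1*, *Ccr3*, *Ccr4*, *Ccr6*, *Ccr7*, *Ccr8* and *Ccr9* had means below 0.1 RPKM in each group. Among them are the receptors of lymphocytes and dendritic cells, *Ccr4*, *Ccr6* and *Ccr7*.

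**Figure D5:**
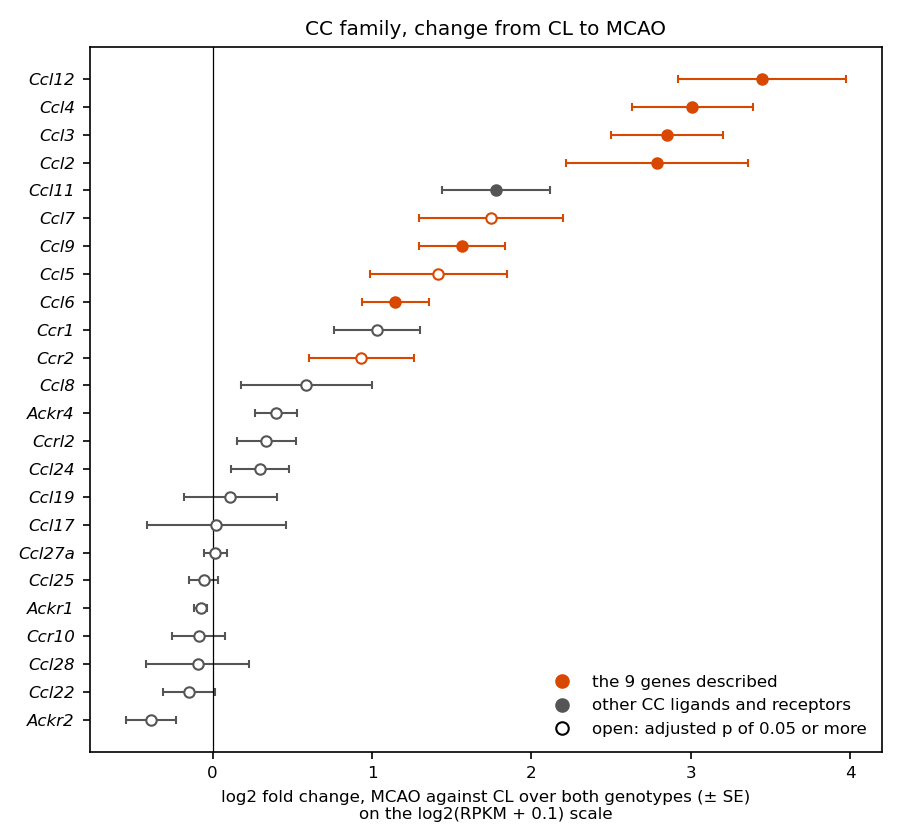
Log2FC from CL to MCAO over both genotypes with its SE (horizontal axis, log2(RPKM + 0.1) scale) for the 9 genes described and 15 other CC ligands and receptors with a group mean of at least 0.1 RPKM. Filled points passed an adjusted p of 0.05, and of the 15 others *Ccl11* did.

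Of 30 genes that act downstream of chemokine receptors, 8 rose and 0 fell in *Cort*-/- mice, 0 passed in *Cort*+/+ mice, and 13 rose and 1 fell over both genotypes, with a median log2FC of 0.26. The shares of all genes tested that rose were 1.34%, 0.00868% and 2.52% in these comparisons. The 3 of largest change among those with a mean of at least 1 RPKM were *Dock2* and *Rac2*, which drive actin remodelling in migrating leukocytes, and the leukocyte integrin *Itgb2*. *Dock2* rose over both genotypes (log2FC 1.36 ± 0.19, adjusted p = 0.00252), from 0.659 ± 0.131 to 1.77 ± 0.704 RPKM in *Cort*+/+ mice (SD, n = 3 each) and from 0.715 ± 0.129 (SD, n = 3) to 2.21 ± 0.508 RPKM (SD, n = 5) in *Cort*-/- mice. *Rac2* and *Itgb2* had log2FC of 1.35 ± 0.22 and 1.30 ± 0.20 (adjusted p = 0.00527 and 0.00473).

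Of 20 cytokines and transcription factors known to induce CC ligands, 19 were tested, of which 2 rose in *Cort*-/- mice, 0 passed in *Cort*+/+ mice and 7 rose over both genotypes, with a median log2FC of 0.27, against the same shares of all genes (1.34%, 0.00868% and 2.52%). *Irf7*, the interferon regulatory factor that is itself interferon-induced, rose over both (log2FC 2.69 ± 0.52, adjusted p = 0.0132), and so did the NF-kappaB subunit gene *Nfkb2* (0.69 ± 0.15, adjusted p = 0.0259). In *Irf7*, *Cort*+/+ MCAO libraries ranged from 1.35 to 11.01 RPKM and *Cort*-/- MCAO libraries from 1.47 to 10.7 RPKM, against at most 1.15 RPKM in CL, so that the 2 hemispheres did not overlap. The interaction did not pass for any of the 5 genes named from these lists (adjusted p = 1).

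For each of the 9 genes, the 3 genes of mean level 0.5 RPKM or more with the most similar pattern over the 14 libraries were found among 17475 genes (17476 for *Ccr2*), by the correlation after subtraction of group means. *Ccl6* went with *Cd9*, *Grn* and *Ctsz* (r = 0.986, 0.985 and 0.982), and *Ccl9* with *Fcer1g*, *Unc93b1* and *Plin2* (0.955, 0.955 and 0.951). *Ccl12* went with *Tor3a*, *Tapbp* and *Fcgr4* (0.970, 0.969 and 0.966), *Ccl2* with *Ikzf1*, *Cd72* and *Casp1* (0.941, 0.938 and 0.938), and *Ccl7* with *Sp110*, *Lcp2* and *Rbl1* (0.952, 0.942 and 0.941). *Ccl3* went with *Mt3*, *Cd52* and *Cd68* (0.954, 0.95 and 0.949), *Ccl4* with *Ftsj3*, *Bid* and *Mir212* (0.955, 0.946 and 0.923), and *Ccl5* with *Stat6*, *Masp1* and *Cacng6* (0.982, 0.953 and 0.949). *Ccr2* went with *Tmem86a*, *Gm49388* and *Wtip* (0.949, 0.939 and 0.937). With 14 libraries in 4 groups, 10 degrees of freedom remain, so these are the top of many correlations and describe the libraries only.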

How the data were processed

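RNA-seq libraries of 14 mouse hemispheres were made with a stranded mRNA kit. The authors deposited RPKM values per gene and library, which they made with the reanalyzerGSE pipeline on GRCm39 (build from the submitters' processing notes). Dividing by the value of 1 read gave whole reads (possibly read pairs) for 495656 of 495656 values within 0.01, and these recovered reads gave depth, counting intervals and 1 alternative test. Groups came from the labels. log2(RPKM + 0.1) of 46102 genes above 0 in at least 2 libraries was fitted in limma 3.58.1 (R 4.3.3) with 1 mean per group, all 14 libraries sharing the spread and Benjamini-Hochberg adjustment over all genes. The study describes its replicates as independent biological ones, but whether a CL and an MCAO library share a mouse is not given. Where they do, the main test ignores that pairing. Scripts were tested on simulated data. Alternatives were other scalings, pseudocounts, filters, weights, voom, a replicate block and leaving out each library. The main test had no replicate block. CL and MCAO libraries of the same number correlated at -0.168 to 0.238 and those of different numbers at -0.259 to 0.304, so the numbers were not taken as pairs, and whether hemispheres are paired in another way is not known from the labels. All 9 genes, every other CC gene with a group mean of at least 0.1 RPKM, the 3 genes of largest change among those of at least 1 RPKM in each other list and the 3 most similar genes per member are named, except genes that are not reported here. Members and lists were chosen with earlier results of these data known. Coordinates are from GENCODE on GRCm39 and promoters from RefSeq on GRCm38.p6.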

Additional observations from a re-analysis of the deposited data

How the results depend on the processing

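In MCAO against CL, every refit kept the direction of all 9 genes in *Cort*+/+ mice (224 of 224 values), *Cort*-/- mice (224 of 224) and over both genotypes (215 of 215), but counts of calls moved. Part of these values could not change, so the tallies overstate how far direction was tested. A change of filter leaves each log2FC as it was. Within a genotype, so does leaving out a library of the other genotype or fitting only the groups compared. In *Cort*+/+ mice 0 genes passed, 2 with a filter at a mean of 0.5 RPKM (*Ccl3* and *Ccl4*, with fewer genes tested), and 0 to 2 without 1 library. In *Cort*-/- mice 5 passed, 3 with a pseudocount of 1, 6 with that filter or library weights (adding *Ccl2*), and 0 to 6 without 1 library. Over both genotypes 6 passed, 8 with that filter (adding *Ccl5* and *Ccl7*), 7 with TPM, a pseudocount of 0.01 or library weights (adding *Ccl7*), and 5 to 8 without 1 library (5 without *Cort*-/- CL replicate 1, 8 without *Cort*+/+ MCAO replicate 4). With the replicate block, 0 passed in *Cort*-/- mice and 0 over both genotypes, and this fit called 0 of all 46102 genes in either comparison. Only numbers with both a CL and an MCAO library inform its changes, namely 2 and 3 in *Cort*+/+ and 1, 2 and 3 in *Cort*-/- mice. With so few of them its lack of calls decides nothing, and its interaction values rest on these libraries alone. The log2FC of *Ccl3* in *Cort*-/- mice was 2.38 with the block, against 2.64. The labels give the CL and MCAO libraries of a block only a number in common, and whether they share a mouse is not known. No call was made between genotypes or in the interaction in any setting. In CL, the difference between genotypes of *Ccl12* was -0.0103 with library weights, and that of *Ccr2* was -0.00937 with a pseudocount of 0.01, -0.0203 with library weights and -0.033 in voom. Without 1 library, these differences were -0.316 to 0.375 for *Ccl5*, -0.018 to 0.280 for *Ccl6*, -0.212 to 0.151 for *Ccl9*, -0.430 to 0.369 for *Ccl12* and -0.282 to 0.194 for *Ccr2*. In MCAO they were -0.316 to 0.438 for *Ccl3*, -0.212 to 0.677 for *Ccl4*, -0.217 to 1.040 for *Ccl7* and -0.025 to 0.720 for *Ccl9*, lowest without *Cort*+/+ MCAO replicate 4. With the replicate block, the interaction was -1.214 for *Ccl2*, -0.529 for *Ccl5*, -0.365 for *Ccl6*, -0.368 for *Ccl9* and -0.524 for *Ccl12*. For *Ccl7* it was 0.00614 with quantile normalization, 0.073 with a pseudocount of 0.5, 0.071 with a pseudocount of 1 and 0.016 with library weights. Without 1 library, the interaction was -0.451 to 1.656 for *Ccl2*, -0.861 to 0.041 for *Ccl3*, -0.049 to 0.496 for *Ccl6* and -0.726 to 0.531 for *Ccl7*. The cause of these changes was not tested. A fit with only the groups compared gave no value over both genotypes or for the interaction, no block could be fitted between genotypes, and *Ccr2* was not tested under the filter at 0.5 RPKM. At 1 to 12 reads per CL library, *Ccl2*, *Ccl4*, *Ccl5* and *Ccl7* are limited by depth, and *Ccl4* had no read in 1 library.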
